A study of Saccharomyces cerevisiae with 3 samples.

Results

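Transcripts of the ATG genes, the genes of autophagy in budding yeast, were examined on 3 expression arrays. A gene was a member when its standard name, looked up in RefSeq by the locus tag that the array files give, was ATG followed by a number. This gave 37 of the 5777 genes on the arrays, and all 37 ATG names of the RefSeq table were found. VPS30 and SNX4, which have older ATG names, are described with the partner genes. Of the members, 20 were taken as core genes of autophagosome formation, 14 as genes of selective autophagy and 3 as genes acting in the vacuole. The place of ATG41 among the selective genes is open to question, and class medians with it moved were not computed.

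All cells were Saccharomyces cerevisiae of the strain DS10, labelled WT, in log phase in medium lacking leucine. The Ssz1 S295F cells carried the plasmid pRS415 with the GPD promoter before an Ssz1 protein with this substitution. The Zuo1 fragment cells carried residues 365 to 433 of Zuo1 with S427G in the same plasmid, and the vector cells carried GPD-TAP. Each group was 1 array of RNA pooled from 3 biological replicates, so no spread between cultures can be estimated, no p-value is given, and each comparison is one of these arrays. Ssz1 and Zuo1 form a chaperone complex on the ribosome and are also known as activators of the drug resistance factor Pdr1.

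The value of a gene is its intensity after RMA, a background correction, normalization and probe summary, given below as the geometric mean of the 3 blocks of an array. Errors are SDs of a log2 ratio across the 3 blocks and hold only the noise inside an array. Median intensities were 2701 for Ssz1 S295F, 2720 for the Zuo1 fragment and 2806 for vector. Across genes, blocks of the same array had correlations of at least 0.998. SSZ1 read 19318 on the Ssz1 S295F array, 12001 on the Zuo1 fragment array and 10279 on the vector array. ZUO1 read 13744, 12935 and 13337 on the same arrays, and whether its probes lie in the plasmid's fragment was not tested. Many ATG readings were low: 22 of the 37, or 59.5%, were among the lowest 25% of genes by mean level, and 5 had a reading below the 5th percentile of an array.

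In autophagy a double membrane closes around cytoplasm and fuses with the vacuole, where lipases and proteases break down its inner vesicle and cargo. Starvation is the best known trigger in yeast. The Atg1 kinase complex starts the process, Atg9 vesicles, Atg2 and a PI3-kinase build the membrane, and a pair of ubiquitin-like systems attaches Atg8 to lipid. Selective autophagy uses the same machinery with receptors that bind a given cargo. Atg15 is the phospholipase that opens the inner vesicle once it is in the vacuole.

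With Ssz1 S295F, 3 of the 37 ATG genes were higher than with vector past 2-fold, ATG15, ATG1 and ATG40, and 1 was lower, ATG10. By this rule of size 5.02% of all 5777 genes were higher and 2.77% were lower, 7.79% in either direction. On the Zuo1 fragment array the same 3 ATG genes were higher, against 3.64% of all genes, and 0 were lower, against 0.866%, which makes 4.5% in either direction. These are 8.11% of the members, and 1 gene is 2.70% of them, so the counts alone do not set the ATG genes apart. Both comparisons use the same vector array. The split with Ssz1 S295F was 5 higher and 1 lower with ratios centred on the median gene, where 6.82% of all genes were higher and 1.56% lower. It was 5 and 0 after a further quantile normalization (6.18% and 1.42% of all genes). A loess on mean level gave 6 and 0 (7.69% and 0.675%) and a loess on coding span 5 and 0 (5.12% and 0.917%). Each of these 4 higher counts includes ATG16, whose readings were too dim for a size to be given.

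The middle ATG gene stayed near the middle gene of the arrays. For Ssz1 S295F the median log2 ratio was -0.08 over the 37 members and -0.15 over all genes. For the Zuo1 fragment it was -0.19 over the members and -0.12 over all genes. Core genes had medians of -0.16 for Ssz1 S295F and -0.19 for the Zuo1 fragment, and selective genes -0.27 and -0.29. These signs are not settled, since after the loess on mean level the core median was 0.12 for Ssz1 S295F and the selective medians were 0.060 and 0.068. After the loess on span the selective medians were 0.094 and 0.0021. Below 0 were 24 members, or 64.9%, for Ssz1 S295F and 25, or 67.6%, for the Zuo1 fragment, close to the 65.8% and 67.5% of all genes. Single members spanned -1.20 to 2.80 in the Ssz1 S295F comparison and -0.91 to 2.41 in the other.

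**Figure D1:**
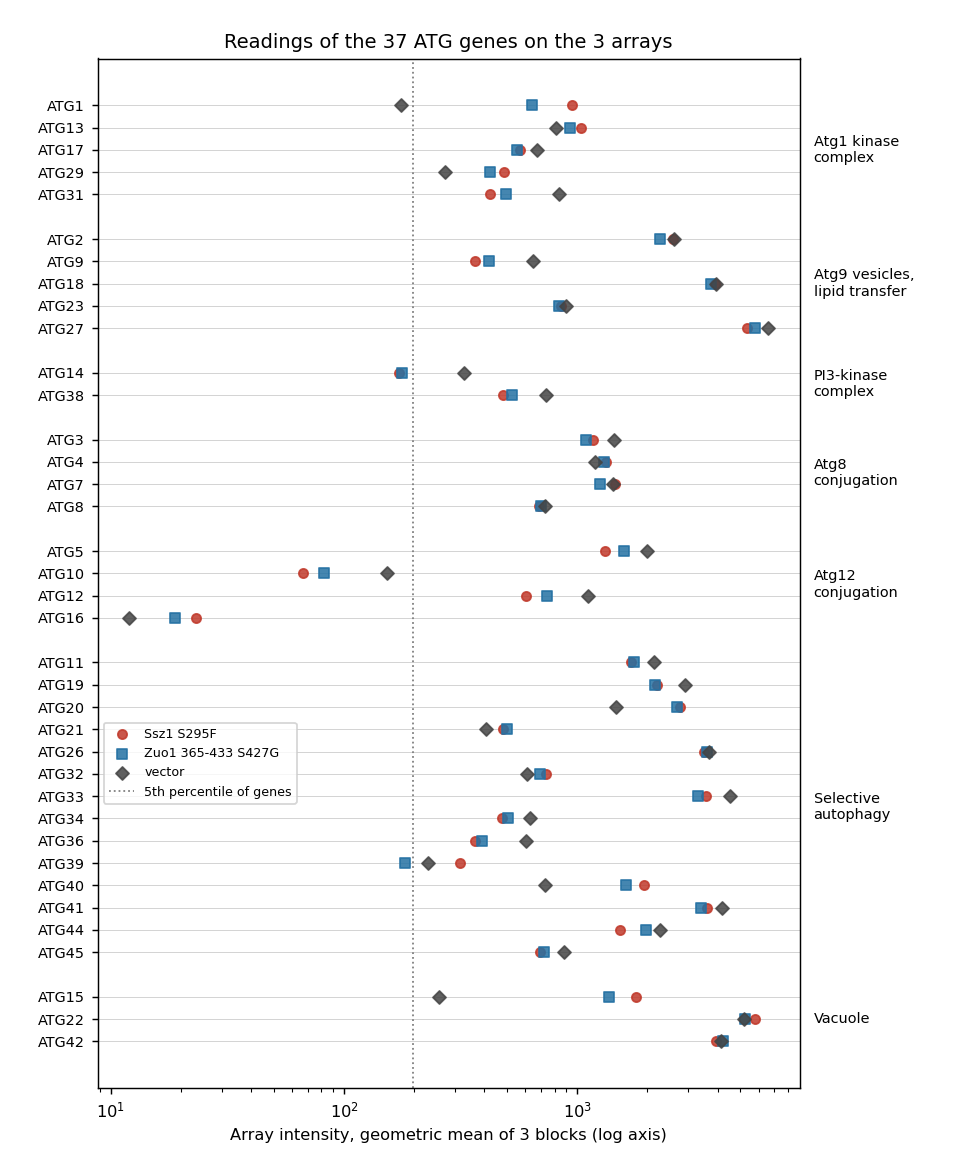
Array intensity (geometric mean of 3 blocks, log axis) of each of the 37 ATG genes, grouped by role, on the Ssz1 S295F array (circles), the Zuo1 fragment array (squares) and the vector array (diamonds), with the 5th percentile of genes, averaged over the 3 arrays, as a dotted line. ATG15, ATG1 and ATG40 are the members whose construct readings lie farthest right of the vector reading.

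ATG15 (YCR068W, chromosome III, 237210 to 238772, in the chromosome records that the array files cite) read 1789 with Ssz1 S295F, 1364 with the Zuo1 fragment and 257 with vector. Its single blocks read 1779 to 1808 for Ssz1 S295F, 1307 to 1411 for the Zuo1 fragment and 246 to 264 for vector. Against vector this was a log2 ratio of 2.80 ± 0.05 for Ssz1 S295F, or 6.97-fold, and of 2.41 ± 0.03 for the Zuo1 fragment, or 5.32-fold. ATG15 had the largest ratio of the 37 members in both comparisons with vector and ranked 21 and 19 among all 5777 genes. On the vector array 5.6% of genes read lower than ATG15 or the same, so the size of its ratios rests on a dim reading. ATG1 came next, at 2.44 and 1.86, and the median of the 36 members other than ATG15 was -0.15 for Ssz1 S295F and -0.19 for the Zuo1 fragment. Over the 8 other settings that kept the gene, its ratio was between 2.76 and 3.22 for Ssz1 S295F and between 2.38 and 2.80 for the Zuo1 fragment.

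The other vacuolar members did not share this difference. ATG22, an exporter of amino acids from the vacuole, read 5810 with Ssz1 S295F, 5256 with the Zuo1 fragment and 5212 with vector. ATG42, a vacuolar carboxypeptidase, read 3932, 4225 and 4148 on the same arrays. Their log2 ratios lay between -0.08 and 0.16, so the lipase gene alone of the 3 was past 2-fold.

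ATG1 (YGL180W, chromosome VII, 160071 to 162764) encodes the kinase that starts autophagosome formation. It read 952 with Ssz1 S295F, 639 with the Zuo1 fragment and 176 with vector. Its log2 ratios were 2.44 ± 0.12 for Ssz1 S295F and 1.86 ± 0.21 for the Zuo1 fragment. With vector, ATG1 was among the dimmest 5% of genes, where the block SD understates the doubt on the size. Members of the same complex differed in direction. ATG29, a partner of the scaffold Atg17, read 487 with Ssz1 S295F, 421 with the Zuo1 fragment and 270 with vector (0.85 ± 0.05 and 0.64 ± 0.05). ATG31, which joins Atg17 and Atg29, read 422, 493 and 839 on those arrays (-0.99 ± 0.09 and -0.77 ± 0.04). The regulatory subunit gene ATG13 was at 0.35 ± 0.01 and 0.19 ± 0.15 and the scaffold gene ATG17 at -0.24 ± 0.05 and -0.28 ± 0.03. The end of ATG29 overlaps SET6 by 24 bp, and whether their signals mix was not tested.

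Of the genes that bring membrane to the forming autophagosome, 4 of the 5 in the Atg9 and lipid transfer group stayed within 0.30 of vector on the log2 scale. All 5 were below 0 in both comparisons with vector, as were most genes of the arrays. The furthest was ATG9, the membrane protein of the vesicles, which read 364 with Ssz1 S295F, 417 with the Zuo1 fragment and 648 with vector (-0.83 ± 0.07 and -0.64 ± 0.03). ATG2, a lipid transfer protein gene, was at -0.02 and -0.19, and ATG18, whose product binds the PI3-kinase lipid, at -0.02 and -0.08. ATG23 (-0.07 and -0.11) and ATG27 (-0.30 and -0.18), which act in Atg9 traffic, stayed small too. With ratios centred on the median gene ATG2, ATG18 and ATG23 were above 0 with Ssz1 S295F, while ATG9 stayed below 0 with both constructs in all 8 other settings that kept it. ATG14, the subunit that gives the PI3-kinase its autophagy role, read 172 with Ssz1 S295F, 177 with the Zuo1 fragment and 327 with vector. Its ratios were -0.93 ± 0.04 and -0.89 ± 0.02, with both construct readings below the 5th percentile. ATG38, of the same complex, was at -0.62 ± 0.05 and -0.49 ± 0.02. After the loess on span ATG38 was at -0.24 and -0.20, and ATG14 at -0.69 and -0.68.

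The ubiquitin-like systems had 4 genes each in the grouping used here, and a difference between the systems was not tested. The Atg8 genes stayed close to vector, between -0.29 and 0.17 for Ssz1 S295F and between -0.39 and 0.14 for the Zuo1 fragment. ATG8 itself, the protein attached to lipid and the usual marker of induced autophagy, read 685 with Ssz1 S295F, 699 with the Zuo1 fragment and 725 with vector. Its ratios of -0.08 ± 0.03 and -0.05 ± 0.04 were above 0 in 4 of 8 other settings, so it has no settled direction. After the loess on span ATG8 was at 0.46 for Ssz1 S295F and 0.33 for the Zuo1 fragment. ATG7 (0.03 and -0.18) activates both proteins, ATG3 (-0.29 and -0.39) attaches Atg8 and the protease gene ATG4 (0.17 and 0.14) trims it.

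In the Atg12 system 3 of 4 genes, ATG5, ATG10 and ATG12, were lower on both construct arrays. Of all genes 65.8% were below 0 for Ssz1 S295F and 67.5% for the Zuo1 fragment. The count of 3 therefore does not set this system apart. All genes of up to 654 bp, the class of ATG10 and ATG12, had medians of -0.48 and -0.34. Genes of 656 to 1026 bp, the class of ATG5, had -0.31 and -0.25. After the loess on span ATG5 was at -0.29 and -0.07, ATG10 at -0.72 and -0.56 and ATG12 at -0.44 and -0.26. ATG12, the ubiquitin-like protein, read 604 with Ssz1 S295F, 740 with the Zuo1 fragment and 1117 with vector (-0.89 ± 0.05 and -0.59 ± 0.06). ATG5, to which it is joined, read 1320, 1595 and 1999 on the same arrays (-0.60 ± 0.01 and -0.33 ± 0.02). ATG10, the conjugating enzyme, read 66.9, 81.7 and 153, all below the 5th percentile, and passed 2-fold with Ssz1 S295F (-1.20 ± 0.02) but not with the Zuo1 fragment (-0.91 ± 0.03). That count of 1 lower gene was 0 after the quantile normalization and after each loess. ATG16 read 23.2 with Ssz1 S295F, 18.9 with the Zuo1 fragment and 12.0 with vector, too dim for its ratio to be used.

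**Figure D2:**
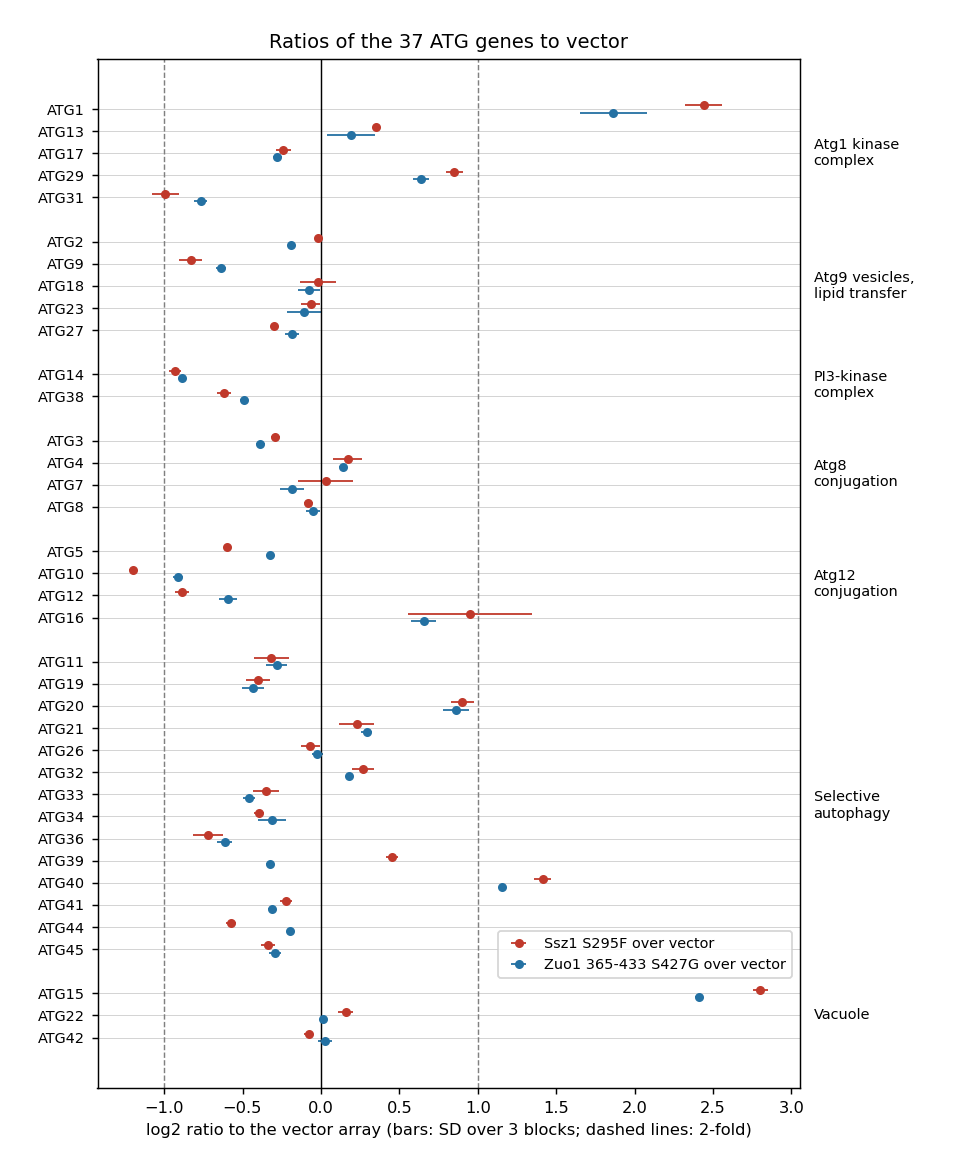
Log2 ratio to the vector array of each of the 37 ATG genes, for Ssz1 S295F (upper point of each pair) and the Zuo1 fragment (lower point), with bars for the SD over 3 blocks and dashed lines at 2-fold. ATG15, ATG1 and ATG40 lie right of the 2-fold line for both constructs, and ATG10 left of it for Ssz1 S295F.

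Among the selective genes, ATG40 was past 2-fold and ATG20 came next. ATG40 (YOR152C, chromosome XV, 617519 to 618289), a receptor for autophagy of the endoplasmic reticulum, read 1937 with Ssz1 S295F, 1621 with the Zuo1 fragment and 727 with vector. Its ratios were 1.41 ± 0.06 for Ssz1 S295F and 1.16 ± 0.01 for the Zuo1 fragment, and both were past 2-fold in all 9 other settings. ATG20, a sorting nexin that acts with Snx4, read 2754, 2676 and 1473 on the same arrays (0.90 ± 0.08 and 0.86 ± 0.08). SNX4 was not higher, at 1875 with Ssz1 S295F, 2010 with the Zuo1 fragment and 2054 with vector. Other receptor genes lay on both sides of 0. The mitophagy receptor gene ATG32 was at 0.27 ± 0.07 and 0.18 ± 0.01, and the peroxisome receptor gene ATG36 at -0.72 ± 0.09 and -0.61 ± 0.05. The receptor genes ATG19 and ATG34 of the cytoplasm-to-vacuole pathway were at -0.40 and -0.40 with Ssz1 S295F and at -0.43 and -0.31 with the Zuo1 fragment. ATG11, the scaffold of selective autophagy, was at -0.32 ± 0.11 and -0.28 ± 0.07.

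The other selective members stayed under 1.5-fold. ATG33, of mitophagy, was at -0.35 for Ssz1 S295F and -0.46 for the Zuo1 fragment, and ATG44, whose product divides mitochondria, at -0.57 and -0.19. ATG21 (0.23 and 0.29) binds the PI3-kinase lipid. ATG26, a sterol glucosyltransferase gene, was at -0.07 and -0.02. ATG41 (-0.22 and -0.31) and ATG45 (-0.34 and -0.29) also read lower on both construct arrays. After a loess on coding span ATG41 and ATG45 were above 0, and ATG44 was at -0.01 for Ssz1 S295F and 0.20 for the Zuo1 fragment.

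The construct arrays were compared directly, without the vector array. Here 0 ATG genes passed 2-fold in either direction, where 0.138% of all genes passed upward and 0.138% downward, 0.277% together. The largest difference was in ATG39, a receptor for autophagy of the perinuclear endoplasmic reticulum, which read 183 with the Zuo1 fragment and 315 with Ssz1 S295F (-0.78 ± 0.06) and 230 with vector. Its Zuo1 fragment reading was among the dimmest 5%. ATG1 (-0.58 ± 0.11), ATG15 (-0.39 ± 0.06) and ATG40 (-0.26 ± 0.06) each had the lower reading on the Zuo1 fragment array. ATG44 was the highest of the members here, at 0.38 ± 0.03. The difference was under 0.2 on the log2 scale for 67.6% of ATG genes and 79.1% of all genes, and 17 members were above 0 and 20 below. That is 45.9% of the members above 0, against 58.0% of all genes.

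Ratios to vector went with the span from start to stop codon across all genes, and the ATG genes were set beside genes of like span. Across genes, which share the arrays and are not replicates, Spearman's rho between span and ratio with Ssz1 S295F was 0.39 over the 37 members and 0.55 over all genes. With the Zuo1 fragment it was 0.35 and 0.52. The 10 members of up to 654 bp, among them ATG10, ATG12 and ATG31, had a median of -0.34 with Ssz1 S295F, and all genes of that size -0.48. The 9 members of 1464 to 2115 bp, ATG15 among them, had a median of 0.17 and all such genes 0.11. In the other 3 size classes the ATG median was the lower one. It was -0.45 over 6 members of 656 to 1026 bp (all genes -0.31), -0.32 over 6 of 1029 to 1461 bp (all genes -0.11) and -0.04 over 6 of 2118 bp or more (all genes 0.06). With a loess of the ratio on span subtracted, ATG15 stood at 2.76 for Ssz1 S295F and 2.39 for the Zuo1 fragment, ATG1 at 2.37 and 1.83, and ATG40 at 1.77 and 1.44. ATG12 was then at -0.44 and -0.26 and ATG31 at -0.56 and -0.44, while ATG9, with a span of 2994 bp, remained at -0.89 and -0.66. Other members were below 0 before and at or above 0 after. These were 6 of 24 for Ssz1 S295F (ATG3, ATG8, ATG27, ATG33, ATG41 and ATG45). For the Zuo1 fragment they were 5 of 25 (ATG8, ATG27, ATG41, ATG44 and ATG45). Over all genes 1241 of 3802 with Ssz1 S295F and 1255 of 3898 with the Zuo1 fragment moved in this way, so the members do not stand apart. In each comparison 1 member turned from above to below 0, ATG7 for Ssz1 S295F and ATG22 for the Zuo1 fragment. ATG41 was then at 0.29 and 0.056 and ATG45 at 0.11 and 0.040.

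**Figure D3:**
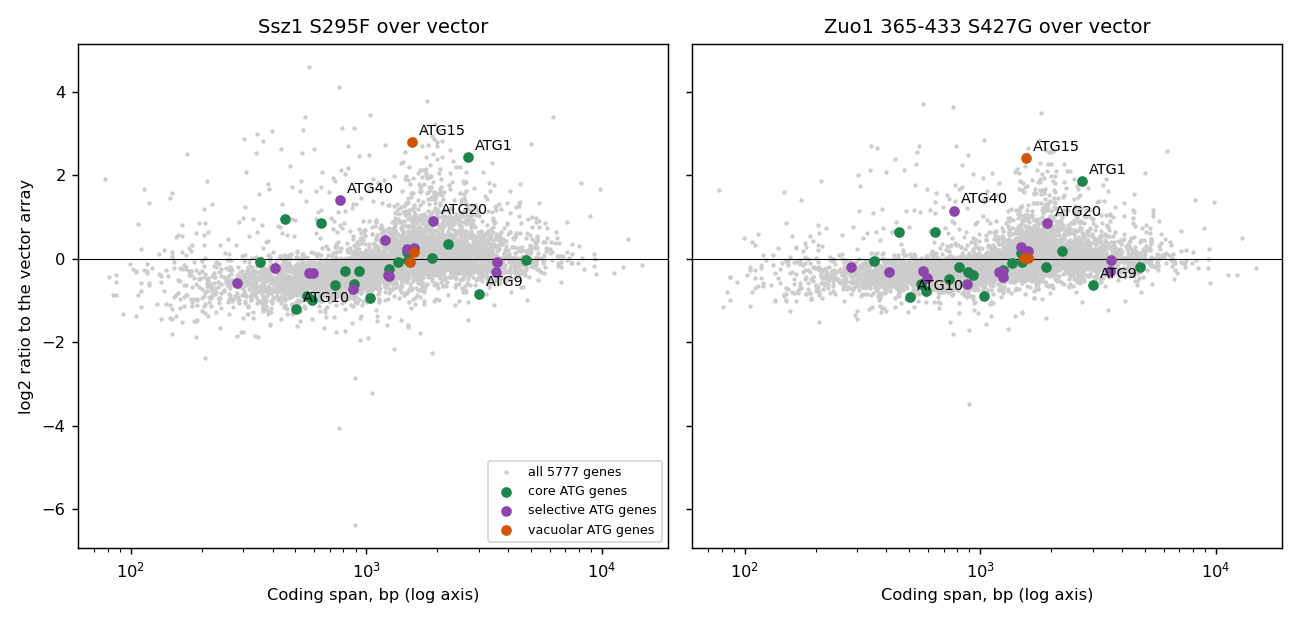
Log2 ratio to the vector array against coding span (bp, log axis) for all 5777 genes (grey) and the core, selective and vacuolar ATG genes (coloured), with Ssz1 S295F on the left and the Zuo1 fragment on the right. ATG15, ATG1 and ATG40 lie above most genes of their span, and most short ATG genes lie below 0 among the other short genes.

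Genes beside the members on the chromosome were read for comparison. The genes next to ATG15 stayed near vector: SED4, transcribed away from it, was at -0.17 ± 0.07 for Ssz1 S295F and -0.13 ± 0.08 for the Zuo1 fragment, and CPR4 at -0.06 ± 0.06 and -0.06 ± 0.04. ATG1 lies between GTS1 (-0.12 ± 0.04 and -0.12 ± 0.07) and TOS3 (-0.90 ± 0.08 and -0.77 ± 0.15). Neither pair of neighbours was higher with ATG15 or ATG1. Both neighbours of ATG40 were above vector, though under 2-fold. ATG40 is transcribed away from PDR5, the main multidrug transporter gene and a Pdr1 target, across a gap of 1551 bp. Whether the readings of ATG40 and PDR5 are linked was not tested. PDR5 read 17493 with Ssz1 S295F, 16620 with the Zuo1 fragment and 9653 with vector (0.86 ± 0.04 and 0.78 ± 0.04). SLP1, beyond PDR5 and named after its value was seen, was at 1.79 ± 0.08 and 1.85 ± 0.04, while RPB2, on the other side of ATG40, was at 0.39 ± 0.18 and 0.30 ± 0.20.

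Over the 72 genes next to an ATG gene, 3 were past 2-fold higher and 0 lower in each comparison with vector. Of all genes 5.02% were higher and 2.77% lower with Ssz1 S295F, and 3.64% and 0.866% with the Zuo1 fragment. The counts do not set the neighbours of ATG genes apart. The 3 higher genes were named after their values were seen. LRO1, which makes triacylglycerol from phospholipid, read 4387 with Ssz1 S295F, 3265 with the Zuo1 fragment and 829 with vector (2.40 ± 0.10 and 1.98 ± 0.09). Its neighbour ATG3, transcribed away from it across 281 bp, was slightly below vector. TAH18, which ends 83 bp from ATG11, was at 1.65 ± 0.02 and 1.58 ± 0.02, and SRO9, next to ATG22, at 1.27 ± 0.02 and 1.15 ± 0.02. In these 3 cases the ATG gene beside them stayed under 1.5-fold.

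**Figure D4:**
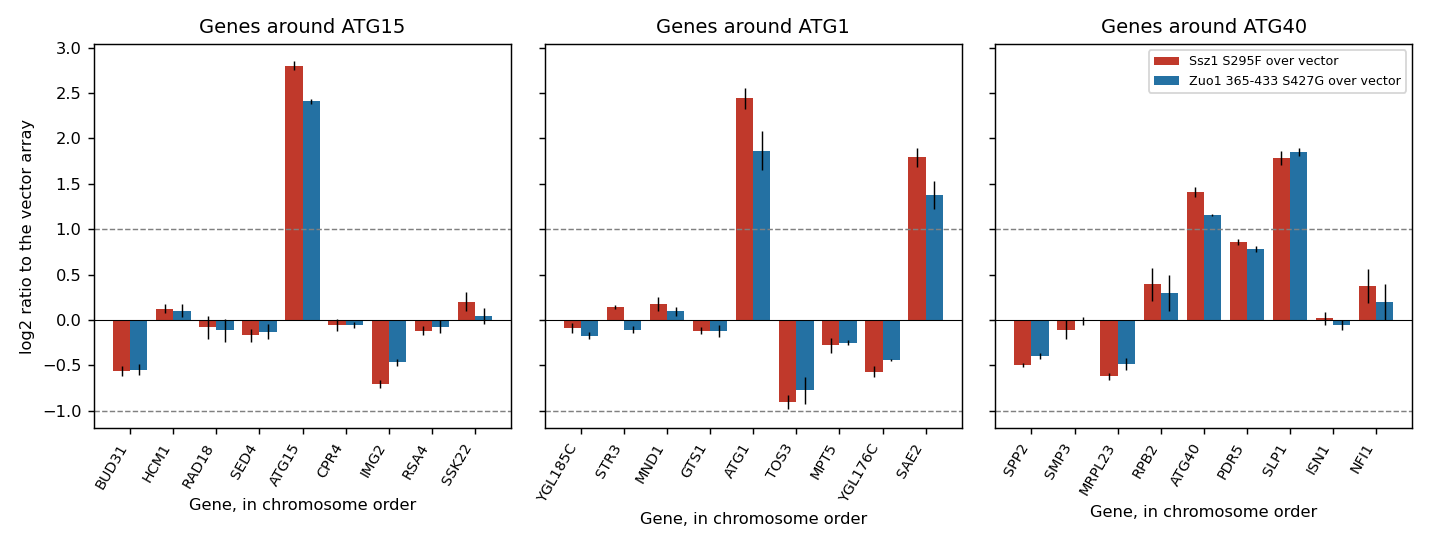
Log2 ratio to the vector array (bars, with the SD over 3 blocks) of ATG15, ATG1 and ATG40 and of the 4 genes on either side in chromosome order, for Ssz1 S295F (left bar) and the Zuo1 fragment (right bar), with dashed lines at 2-fold. ATG15 is the one gene of its window past 2-fold, the window of ATG1 also holds SAE2 at 1.79 and 1.37, and ATG40 is followed by PDR5 at 0.86 and 0.78 and SLP1 at 1.79 and 1.85.

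Partners of the ATG proteins outside the family were read from lists by role. Over all genes 5.02% were past 2-fold higher and 2.77% lower with Ssz1 S295F, and 3.64% and 0.866% with the Zuo1 fragment. The lists are short and were chosen with earlier results known, so such counts do not set a list apart. Of 13 vacuolar hydrolase genes, 2, or 15.4%, were past 2-fold higher with each construct and 0 lower. Their medians were -0.02 for Ssz1 S295F and 0.02 for the Zuo1 fragment. PRB1, a protease needed to break down autophagic bodies, read 7217 with Ssz1 S295F, 6484 with the Zuo1 fragment and 2599 with vector (1.47 ± 0.05 and 1.32 ± 0.04). PHO8, the alkaline phosphatase used as an autophagy reporter, read 3612, 3390 and 1071 (1.75 ± 0.06 and 1.66 ± 0.05). PEP4, the protease that activates the others, was close to vector (-0.03 ± 0.04 and 0.03 ± 0.02). APE1, an aminopeptidase that selective autophagy carries to the vacuole, was at -0.73 ± 0.05 and -0.38 ± 0.04. CPS1 (0.72 and 0.68), APE3 (0.55 and 0.51) and AMS1 (-0.47 and -0.46) did not reach 2-fold.

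Other lipase and phospholipase genes, 15 in all, had medians of 0.04 for Ssz1 S295F and 0.16 for the Zuo1 fragment. Past 2-fold higher were 3, or 20%, for Ssz1 S295F (5.02% of all genes) and 1, or 6.67%, for the Zuo1 fragment (3.64%). In both comparisons 0 were lower past 2-fold (2.77% and 0.866% of all genes). TGL5, a triacylglycerol lipase of lipid droplets, read 4474 with Ssz1 S295F, 3665 with the Zuo1 fragment and 1311 with vector (1.77 ± 0.02 and 1.48 ± 0.09). PLB1, a phospholipase B, was at 1.07 ± 0.13 and 0.77 ± 0.06. SPO14, phospholipase D, read 2463 with Ssz1 S295F, 2140 with the Zuo1 fragment and 1229 with vector, just past 2-fold in the first case. Its blocks spread widely, with SDs of 0.47 and 0.45. YEH2 (0.93 and 0.89), NTE1 (0.77 and 0.65) and TGL2 (-0.54 and -0.38) followed.

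Upstream regulators were mostly close to vector. The 23 genes of TORC1, which holds autophagy off in rich medium, and of the Snf1 and protein kinase A pathways had 0 past 2-fold. In either direction 7.79% of all genes passed for Ssz1 S295F and 4.5% for the Zuo1 fragment. The list medians were -0.11 for Ssz1 S295F and -0.15 for the Zuo1 fragment, against -0.15 and -0.12 over all genes. Neither the count nor the medians set these 23 genes apart. MTC5, of the SEA complex upstream of TORC1, was the furthest (0.99 ± 0.01 and 0.80 ± 0.05), then NPR3 (0.77 and 0.56), TPK2 (0.74 and 0.49) and TAP42 (-0.42 and -0.36). The list of 16 regulators of ATG transcripts had 15 measured members. Of these 3, or 20%, were higher past 2-fold with each construct (5.02% and 3.64% of all genes). None, or 0, were lower past 2-fold (2.77% and 0.866% of all genes). SPT10, an activator of histone genes, read 2005 with Ssz1 S295F, 1510 with the Zuo1 fragment and 354 with vector (2.50 ± 0.01 and 2.09 ± 0.04). PAT1, an activator of mRNA decapping, was at 2.21 ± 0.08 and 2.11 ± 0.03, and RTG3, of the retrograde response, at 1.91 ± 0.02 and 1.67 ± 0.06. SFL1 (0.98 and 0.73), DHH1 (0.79 and 0.65), GLN3 (0.56 and 0.31) and GAT1 (0.38 and 0.29) lay below 2-fold.

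PI3-kinase partners and transport genes had 0 members past 2-fold of 8 and 29. The share of all genes past 2-fold in either direction was 7.79% for Ssz1 S295F and 4.5% for the Zuo1 fragment. At such shares a short list can hold 0, so counts of 0 do not set the lists named here apart. VPS30, the subunit once called Atg6, read 458 with Ssz1 S295F, 504 with the Zuo1 fragment and 658 with vector (-0.52 ± 0.02 and -0.38 ± 0.04). VPS34, the kinase itself, was at 0.21 ± 0.11 and 0.17 ± 0.09, VAC14 at 0.46 and 0.47 and VPS38 at -0.36 and -0.27. VAM3, the vacuolar fusion protein gene, was the furthest of the transport list (-0.76 ± 0.02 and -0.62 ± 0.01), with VPS33 at -0.55 and -0.48. The 14 genes of vacuolar amino acid transport and the 6 of polyphosphate and sterol handling also had 0 past 2-fold, with medians from -0.08 to -0.01 in both comparisons with vector.

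**Figure D5:**
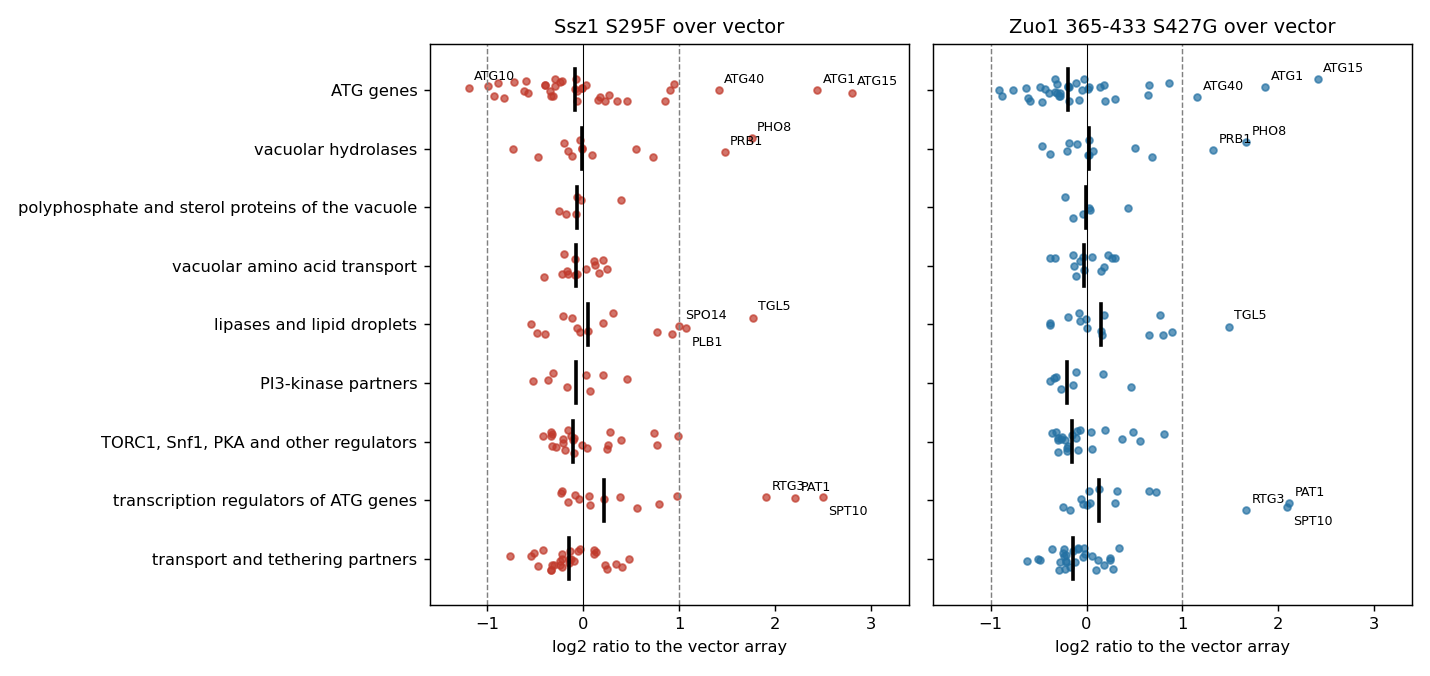
Log2 ratio to the vector array of each gene (points) and the list median (black bar) for the ATG genes and 8 lists of partners and regulators, with Ssz1 S295F on the left and the Zuo1 fragment on the right. Genes past 2-fold (dashed lines) are named. The medians of all lists lie between -0.21 and 0.21, with single genes such as ATG15, SPT10, PAT1, TGL5 and PHO8 far to the right.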

How the data were processed

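Total RNA labelled with Cy3 was read on 1 NimbleGen array for each of 3 plasmids. The authors deposited linear intensity values for each gene, made with RMA per the submitters' processing notes. The program used for RMA was not given in the sources used here. On each array, per the file headers, a gene has 3 block values and up to 8 probes (36 ATG genes have 8 and 1 has 7). A second deposited column without a stated meaning was not used. The series-wide table holds the mean intensity of the blocks and served as an alternative.

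Block intensities were put on the log2 scale and averaged with no floor, and ratios are differences between arrays. Past 2-fold means a log2 ratio of 1 or more in size, which is not a test. With 1 array per group no test was possible, and the number of arrays limits the precision. Positions come from the array files and RefSeq symbols from a table of the assembly R64, matched for 5771 genes. Spans run from start to stop codon and include any intron. The calculation was tested on simulated data.

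The members, partner lists and the role classes were chosen with earlier results of these data known. Every ATG gene could be named, and of each partner list the members past 2-fold and up to 4 others with the largest ratios, with PEP4, PRB1, VPS30, VPS34, SNX4, PDR5 and the neighbours of ATG15. The other neighbouring genes were named outside this rule, after their values were seen. YPS1 and PLB1 were taken out of the vacuolar hydrolase list, and 6 genes of polyphosphate and sterol handling were listed apart from it, after values were seen. Python 3.11.15 with numpy 2.4.6, pandas 2.3.3 and statsmodels 0.14.6 was used.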

Additional observations from a re-analysis of the deposited data

Results flagged for a closer look

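ATG39 was the only one of the 37 ATG genes with ratios of opposite sign in all 3 blocks of the comparisons with vector. It was above vector with Ssz1 S295F (0.46 ± 0.04) and below it with the Zuo1 fragment (-0.32 ± 0.03), a difference of -0.78 for the Zuo1 fragment over Ssz1 S295F. With 1 array per group the difference was not tested. The Zuo1 fragment reading was among the dimmest 5% of its array, and after a loess on mean level the Zuo1 fragment ratio was 0.18, so that both were then above vector.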

How the results depend on the processing

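No paired analysis was possible because each group is 1 array. ATG15, ATG1 and ATG40 were past 2-fold higher with both constructs in every setting that kept them. Leaving out the lowest 25% of genes by mean level removed ATG15 and ATG1. Of the 15 ATG genes left, 1, ATG40, was higher with each construct (3.99% of all genes left for Ssz1 S295F and 2.93% for the Zuo1 fragment). With Ssz1 S295F 0 were lower (0.508%). With Ssz1 S295F the higher ATG genes were 5 after centring on the median gene, 5 after quantile normalization, 6 after a loess on mean level and 5 after a loess on span, against 6.82%, 6.18%, 7.69% and 5.12% of all genes. ATG16, too dim to use, is among them each time. The lower ones were 0 after the last 3 of these (1.42%, 0.675% and 0.917% of all genes). They were 2 in block 1 or block 2 alone (2.94% and 2.7%) and 0 at a 3-fold threshold (0.433%). With the Zuo1 fragment 5 were higher after the loess on mean level (5.14% of all genes). At a 1.5-fold threshold 6 were higher and 8 lower with Ssz1 S295F (10.2% and 13.1% of all genes), 6 higher and 6 lower with the Zuo1 fragment (7.6% and 7.17%), and 1 (ATG39) was lower for the Zuo1 fragment over Ssz1 S295F (1.38%).

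Medians with Ssz1 S295F moved as follows. For core genes they were -0.011 centred, -0.023 quantile normalized, 0.12 after the loess on level, -0.055 after the loess on span, -0.17 in block 3 and -0.018 without the lowest genes. For selective genes they were -0.12, -0.17, 0.060, 0.094 and -0.19 in the first 5 of these settings. Vacuolar genes were at 0.31 centred, 0.23 and 0.11 after each loess, 0.10 in block 3 and 0.040 without the lowest genes. ATG15 was at 2.95 centred, 2.97 quantile normalized, 3.22 after the loess on level and 2.85 in block 2.

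With the Zuo1 fragment core genes were at -0.064 centred, -0.13 quantile normalized, -0.0096 and -0.12 after each loess and -0.24 in block 1. Selective genes were at -0.16, -0.15, 0.068 and 0.0021 in the first 4 of these, -0.26, -0.27 and -0.25 in single blocks and -0.24 without the lowest genes. Vacuolar genes were at 0.15 centred and 0.11 after the loess on level. ATG15 was at 2.53 centred, 2.58 quantile normalized, 2.80 after the loess on level and 2.44 in block 3.

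For the Zuo1 fragment over Ssz1 S295F, core genes were at -0.063 centred, -0.072 after the loess on level and 0.013 in block 2. Selective genes were at -0.027 centred, -0.032 and -0.028 after each loess, -0.043 in block 2, -0.029 in block 3 and -0.037 without the lowest genes. Vacuolar genes were at -0.11 in block 3 and -0.020 without the lowest genes, and ATG15 at -0.33 in block 3. The cause was not tested. Low signal limits the sizes of ATG1, ATG10, ATG14, ATG16 and ATG39. The size of ATG15 is limited too, since on the vector array only 5.6% of genes read lower or the same.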
